A study of Mus musculus with 9 samples.

Results

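The genes described here encode the proteins of the cytosolic ribosome in the mouse cerebellum. They were taken by name: protein-coding genes whose symbol starts with Rpl or Rps and a digit, together with Rplp0, Rplp1, Rplp2 and Rpsa. This rule found 86 of the 37816 genes in the count table, of which 52 have large-subunit symbols and 33 have small-subunit symbols. The remaining gene, Rps19bp1, fits the naming rule but encodes a protein that binds RPS19 and is not a ribosomal subunit. The rule left out 257 copies with -ps symbols, 5 of them annotated as protein-coding, and 10 genes of the ribosomal S6 kinases. A filter on low counts kept 82 of the 86 genes for testing.

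The study asked how the transcriptome of a mouse model of spinocerebellar ataxia type 3 (SCA3) differs from its control and how insulin-like growth factor 1 (IGF1) treatment alters it. Total RNA of cerebellar tissue was sequenced from 9 mice of 18 months on a C57BL/6 background, 3 in each of the groups 15Q, 84Q and 84Q+IGF1. All 9 mice carried human ATXN3 on a yeast artificial chromosome. The transgene of the 15Q mice encoded a tract of 15 glutamines and that of the 84Q and 84Q+IGF1 mice a tract of 84 glutamines. The 84Q+IGF1 mice received IGF1 into the peritoneum at 50 mg/kg each week from 9 to 18 months of age. The sample labels call the 15Q and 84Q mice untreated, whereas the study's methods name injections of phosphate-buffered saline. The 15Q and 84Q lines came from different sources, so a difference between the lines other than tract length cannot be told apart from the effect of the tract. Both comparisons with 15Q use the same 3 control libraries.

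Each ribosome is built from a large and a small subunit, in which many different proteins are assembled on ribosomal RNA. The small subunit reads the messenger RNA and the large subunit joins the amino acids, and copies of a protein that are not built into a subunit are degraded. Many ribosomal protein mRNAs start with a cytosine followed by a run of pyrimidines, the terminal oligopyrimidine (TOP) tract, through which growth factor and mTOR signalling, a pathway downstream of IGF1, controls their translation.

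Transcription start sites were looked up in RefSeq for the assembly GRCm38.p6, where 66 of the 86 genes had an entry. No entry was found for 20 genes, among them Rplp1, Rpl36 and Rpl8. A TOP start, defined as a C at the first base followed by at least 4 bases that are each C or T on the strand of the gene, was present at 14 of 78 listed starts of these genes (17.9%) and at 2.51% of all 32851 listed starts. Within a window from 5 bases before to 20 bases after the start, such a run was found at 55.1% of the listed starts of ribosomal protein genes and at 29.9% of all listed starts. The first listed starts of Rps24 and Rps21 are shown because these genes rank among the most clearly changed ones below. Those of Rps6, Rps27 and Rps27rt were chosen after their values were seen, Rps6 as a long tract and the other pair because their coding sequences are identical. Each line gives 10 bases before the annotated start and 20 bases from it, and capitals mark the first run of a C and at least 4 pyrimidines in the window.
Rps24, chr14:24490668-24490697, plus strand: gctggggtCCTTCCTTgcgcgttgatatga
Rps21, chr2:180257369-180257398, plus strand: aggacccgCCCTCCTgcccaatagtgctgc
Rps6, chr4:86857348-86857377, minus strand: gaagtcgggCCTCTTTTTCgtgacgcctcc
Rps27, chr3:90213629-90213658, minus strand: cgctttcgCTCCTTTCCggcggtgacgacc
Rps27rt, chr9:114982720-114982749, minus strand: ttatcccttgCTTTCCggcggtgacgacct
The run of Rps6 began 1 base before its annotated start and spanned 10 bases. At the first start of Rps24 the run began 2 bases before it and spanned 8 bases. Rps24 and Rps21 each have a second listed start, not printed. At that of Rps24 a run of 6 bases was found within the window but not at the first base, and at that of Rps21 none was found in the window.

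The libraries held between 17482654 and 58269196 counts on genes. Depth differed with the groups, since the 15Q libraries held 26925001 to 58269196 counts, the 84Q libraries 17482654 to 28843999 and the 84Q+IGF1 libraries 23508574 to 29089855. Markers of cerebellar granule and Purkinje cells were present in every library, with none of the 13 genes of either list at 0 and group means between 8167 and 8838 counts-per-million (CPM). In 84Q against 15Q, 2 of the 13 Purkinje markers were called higher, Slc1a6 and Pcp2 at log2 fold changes of 0.34 each (edgeR adjusted p 0.0643 and 0.0936), and 10 of the 13 were above 0. The sum of the 13 was not higher, at 8811 ± 185 CPM in 15Q and 8645 ± 429 CPM in 84Q (SD, n = 3 each). The part of these markers in the difference of the ribosomal protein genes was not tested. A list of 15 genes of intestine and epidermis, tissues other than cerebellum, summed to 42.3 to 73.9 CPM in the 15Q libraries and to 8.74 to 10.4 CPM in the other 6. Its part in any difference from 15Q was not tested. Microglial markers summed to 200 ± 23.5 CPM in 15Q, 245 ± 27.0 CPM in 84Q and 207 ± 8.98 CPM in 84Q+IGF1 (SD, n = 3 each), with 2 of 10 called higher in 84Q against 15Q, and their part was not tested either. Markers of choroid plexus summed to 2107 CPM in 84Q replicate 2, 1185 CPM in 15Q replicate 1 and 1154 CPM in 15Q replicate 3, against 122 to 215 CPM in the other 6 libraries.

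Ribosomal protein genes took between 0.479% and 0.601% of all counts, or 105109 to 294854 counts per library. Among the 82 genes tested, the mean level over the 9 libraries, in transcripts-per-million (TPM, counts per base of exon, scaled to the same total in every library), had a median of 114 and quartiles of 64.7 and 185. Rps3a1 was the highest at 704 TPM (612 to 764 over the libraries). Rplp1, a protein of the acidic stalk that recruits translation factors, followed at 656 TPM, Rps15 at 543 TPM, Rpl4 at 486 TPM and Rpl19 at 349 TPM. Within each group the SD of these 5 genes was at most 69.3 TPM. Over the 9 libraries the ranges of Rps3a1 and Rplp1 overlapped. Their means were 724 ± 56.7 and 570 ± 25.9 TPM in 15Q but 691 ± 69.3 and 712 ± 57.9 TPM in 84Q (SD, n = 3 each). The order of the means was thus not the same in every group.

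At the low end, Rpl24 had 2.51 TPM from 8 to 42 counts per library, Rps10 had 6.80 TPM, Rpl22l1 had 8.23 TPM, Rpl13a had 15.9 TPM and Rps27l had 18.1 TPM. Of the exon bases of Rpl24, 47.0% are shared on the same strand with another annotated gene, Gm28037, and the corresponding shares were 35.4% for Rpl13a and 20.6% for Rps10. How the counting treated reads on shared bases is not given in the sources used here, so the low levels of these 3 genes are uncertain. Reads could also be divided with processed copies elsewhere in the genome. Words of 31 bases from the transcripts of the ribosomal protein genes occurred in transcripts of other genes at a median of 27.0%, and at 94.1% in Rpl36, 76.9% in Rps3a1 and 75.1% in Rplp1.

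Several members are second copies of another ribosomal protein gene, and their shares differed widely. In the 4 pairs whose copy stayed under the filter, Rpl3l had 2 to 20 counts per library, Rpl36al 3 to 11, Rpl39l 0 to 5 and Rpl10l 0 to 2. Rpl3l, which replaces RPL3 in muscle ribosomes, made up 0.0858% to 0.376% of the TPM of the pair with Rpl3, and the shares below are of TPM too. Larger shares were held by Rpl7l1, with 24.2 ± 1.1% of its pair with Rpl7 in 15Q, 22.8 ± 0.39% in 84Q and 23.7 ± 2.2% in 84Q+IGF1 (SD, n = 3 each). Rpl22l1 took 9.85 ± 1.2%, 10.2 ± 2.2% and 9.85 ± 0.68% of its pair with Rpl22 in the same order. No test was made of these shares, and neither copy was called in any comparison.

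Rps27 has a pair of copies. Rps27l took 23.6 ± 2.1% of the TPM of its pair with Rps27 in 15Q, 19.5 ± 2.5% in 84Q and 18.1 ± 4.2% in 84Q+IGF1 (SD, n = 3 each), and the ranges of the groups overlapped. Rps27rt, an intronless copy, took 35.9 ± 6.9%, 42.8 ± 4.4% and 37.1 ± 3.8% of the TPM of its own pair with Rps27. The coding sequence of Rps27 in GENCODE vM21 (GRCm38, chr3:90212522-90213651, minus strand) is printed here because that of Rps27rt (chr9:114982366-114982739, minus strand) is identical to it over all 255 bases.
Rps27 and Rps27rt: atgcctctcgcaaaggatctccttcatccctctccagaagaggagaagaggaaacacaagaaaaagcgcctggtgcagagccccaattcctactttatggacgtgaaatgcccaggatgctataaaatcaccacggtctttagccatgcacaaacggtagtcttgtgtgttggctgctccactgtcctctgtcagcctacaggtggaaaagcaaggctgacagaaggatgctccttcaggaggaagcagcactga
Of the words of Rps27rt, 92.7% occurred in transcripts of other genes, so counts of Rps27 and Rps27rt are not independent and the split between them is uncertain.

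The first question was whether ribosomal protein mRNA differed between the SCA3 line and its control. The summed level of the 86 genes was 4794, 4851 and 5043 CPM in the 15Q libraries, 5554, 5058 and 5991 CPM in the 84Q libraries and 5680, 5110 and 5402 CPM in the 84Q+IGF1 libraries. Every 84Q and 84Q+IGF1 library lay above the highest 15Q library, but replicate 2 of both groups exceeded it by little. As a percent of all counts, without TMM scaling, those 2 libraries (0.504% each) lay just below 15Q replicate 3 (0.506%), so on that scale the groups overlapped. The group means were 4896 ± 131, 5534 ± 467 and 5398 ± 285 CPM (SD, n = 3 each), so that 84Q stood 1.13-fold and 84Q+IGF1 1.10-fold above 15Q. No test was made on this sum. In bulk tissue, fewer cells of a type and less RNA per cell cannot be told apart.

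Both subunits had higher sums in the 84Q and 84Q+IGF1 libraries, and no test was made on these sums either. The large-subunit genes summed to 3046 ± 67.4 CPM in 15Q, 3407 ± 289 CPM in 84Q and 3341 ± 180 CPM in 84Q+IGF1, and the small-subunit genes to 1842 ± 62.6, 2118 ± 180 and 2048 ± 104 CPM (SD, n = 3 each). In contrast, the 257 processed copies summed to 209 ± 5.9, 204 ± 4.3 and 216 ± 17 CPM, with overlapping groups. The 77 genes of the mitochondrial ribosome, which is built separately, summed to 1478 ± 3.3, 1597 ± 85 and 1590 ± 70 CPM, and every 84Q and 84Q+IGF1 library again lay above the 15Q libraries.

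**Figure D1:**
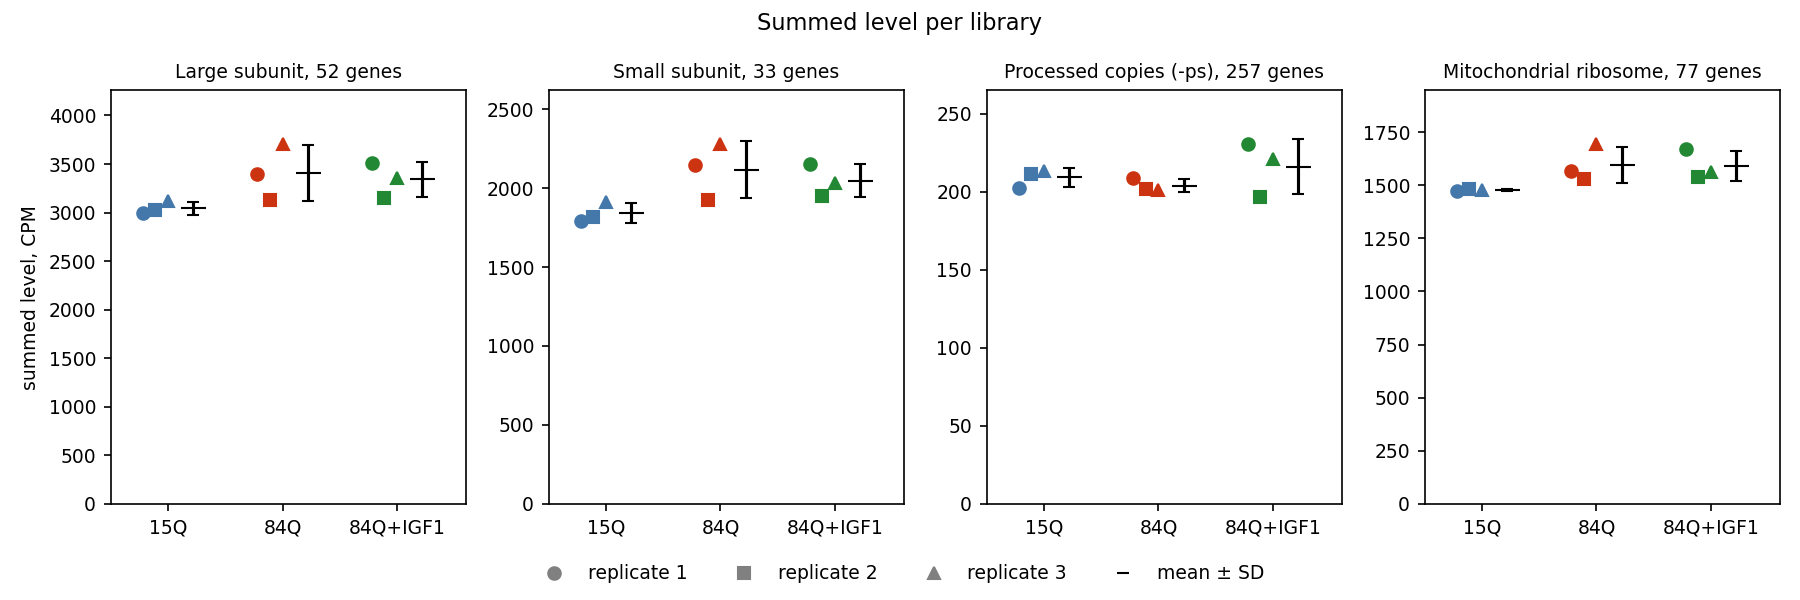
Summed level in CPM (y axis, from 0) of large-subunit genes, small-subunit genes, processed -ps copies and mitochondrial ribosomal protein genes in each library of 15Q, 84Q and 84Q+IGF1 (x axis). Points are libraries, with marker shape for the replicate number, and bars give the mean ± SD of 3. Both cytosolic subunits and the mitochondrial genes sit higher in the 84Q and 84Q+IGF1 libraries than in 15Q, while the -ps copies overlap.

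In 84Q against 15Q, 8 ribosomal protein genes were higher and 0 were lower at an adjusted p under 0.1 in edgeR (quasi-likelihood test, p-values adjusted by Benjamini-Hochberg over all genes tested). At an unadjusted p under 0.05, 36 members were higher, beside 9.04% of all genes higher and 19.4% in either direction, and 0 were lower. Over all 19353 genes tested, 1.54% were called higher and 3.25% lower by the same rule. Of the 8 genes, 3 belong to the large subunit (Rplp1, Rpl36, Rpl8) and 5 to the small subunit, among them Rps24, Rps21, Rps14 and Rps27. No member reached both this threshold and a fold of 1.5 in edgeR, which 2.14% of all genes did. DESeq2 placed 1 member there (Rps27rt), and its share of all genes was not counted. The count of 8 rests on few libraries. It was 2 without 15Q replicate 2 (0.101% of all genes called higher), 4 without 15Q replicate 3 (0.193%), 3 without 84Q replicate 3 (0.261%), 28 without 84Q replicate 2 (1.68%) and 13 without 84Q+IGF1 replicate 1 (2.30%). The calls over all genes thus fell as well in the first 3 of these fits.

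Rps24, a small-subunit protein needed for the maturation of the small ribosomal RNA, changed most clearly. Its level was 151, 160 and 169 CPM in 15Q, 214, 205 and 203 CPM in 84Q and 226, 232 and 212 CPM in 84Q+IGF1. All 6 libraries with the 84Q transgene lay above all 3 15Q libraries. For 84Q against 15Q the log2 fold change was 0.38 ± 0.06 (SE), with an edgeR adjusted p of 0.00806. Rps24 (ENSMUSG00000025290.17, chr14:24487125-24496959) was called in each of the 17 other fits tried for this comparison.

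Rps21, another small-subunit protein, was 13.5, 14.3 and 16.4 CPM in 15Q against 22.4, 18.8 and 22.6 CPM in 84Q, without overlap. Its fold was the largest of the 8 called genes, with a log2 fold change of 0.53 ± 0.11 (SE) and an edgeR adjusted p of 0.0332. This call was lost without 15Q replicate 2 and without 84Q replicate 3. Rps14, a small-subunit protein whose loss underlies the anaemia of the human 5q deletion, was 26.5, 25.5 and 25.3 CPM in 15Q against 30.2, 32.4 and 36.4 CPM in 84Q, also without overlap. Its log2 fold change was 0.35 ± 0.08 (SE), with an edgeR adjusted p of 0.0493. The call of Rps14 was lost without 15Q replicate 2, without 15Q replicate 3, without 84Q replicate 3 and with a replicate block.

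Among the large-subunit genes, Rplp1 was 67.1, 71.4 and 72.0 CPM in 15Q against 90.7, 82.9 and 98.6 CPM in 84Q. Every 84Q library exceeded every 15Q library, with a log2 fold change of 0.37 ± 0.07 (SE) and an edgeR adjusted p of 0.0178. Rpl36 was 24.8, 23.2 and 26.5 CPM in 15Q and 33.0, 33.8 and 33.3 CPM in 84Q, where the libraries lay close together. Its log2 fold change was 0.43 ± 0.09 (SE), with an edgeR adjusted p of 0.0348, and it was not called without 15Q replicate 2. The call of Rplp1 held without any 1 of the 9 libraries.

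Rpl8 and Rps27 were closer to the threshold. Rpl8, a large-subunit protein near the centre that joins amino acids, was 95.2, 85.1 and 89.2 CPM in 15Q and 106, 106 and 127 CPM in 84Q (log2 fold change 0.33, edgeR adjusted p 0.0614). Rps27 was 15.2, 15.2 and 16.5 CPM in 15Q and 22.8, 17.4 and 23.3 CPM in 84Q (log2 fold change 0.43, edgeR adjusted p 0.0865). For both genes every 84Q library exceeded every 15Q library. Both calls were lost without 15Q replicate 2, without 15Q replicate 3 and without 84Q replicate 3, and that of Rps27 also without 15Q replicate 1 and without 84Q replicate 1. Both were also lost with a replicate block and with an offset for exon length, and that of Rpl8 with a term for high Xist.

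**Figure D2:**
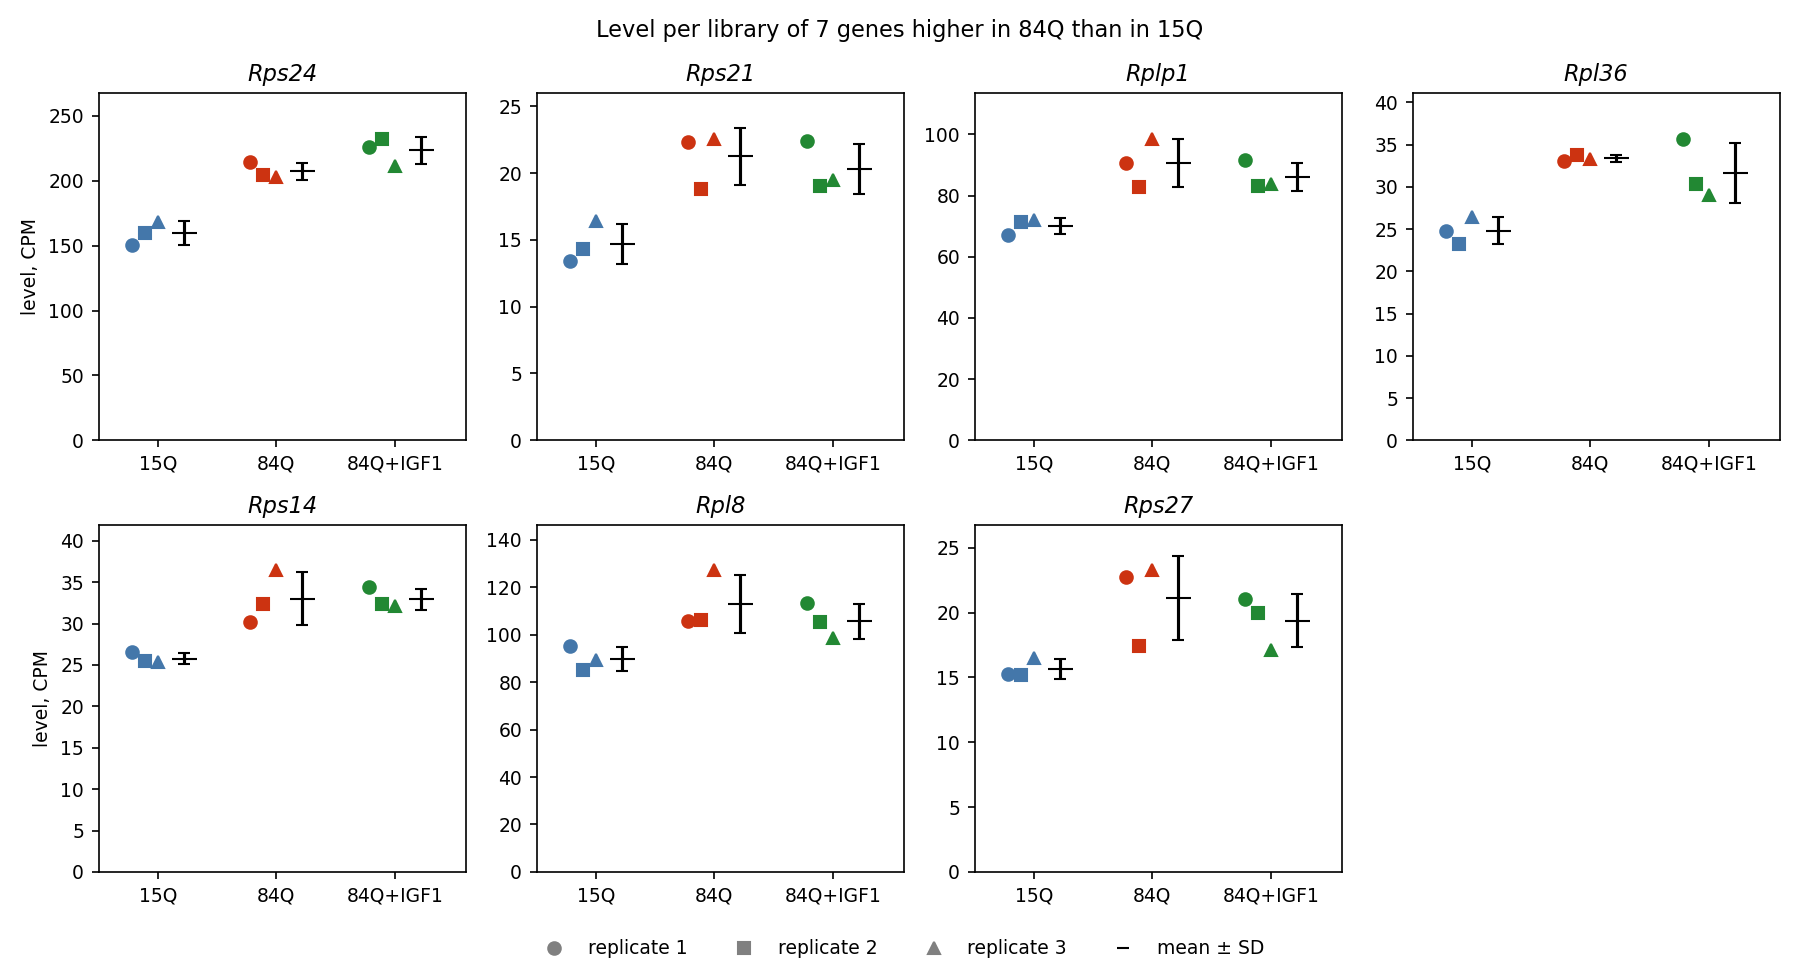
Level in CPM (y axis, from 0) in each library of 15Q, 84Q and 84Q+IGF1 (x axis) for 7 of the 8 ribosomal protein genes called higher in 84Q than in 15Q. Points are libraries, with marker shape for the replicate number, and bars give the mean ± SD of 3. In each panel the 84Q libraries sit above the 15Q libraries, most tightly in Rpl36 (33.0 to 33.8 CPM).

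The genes that were not called leaned the same way. The median log2 fold change of the 82 genes was 0.18, beside a median of -0.00192 over all genes tested, and 78 of the 82 were above 0. It was 0.15 in the large and 0.22 in the small subunit. The groups did not overlap, with 84Q higher, in 37 of the 82 genes and in 11.9% of all genes tested, and in 0 of the 82 genes with 84Q lower (13.5% of all genes). Only Rpl24, Rpl23, Rps3a1 and Rps15a had fitted log2 fold changes below 0, from -0.50 to -0.02, and none of them was called. Rps3a1, the most abundant member, had 724 ± 56.7 TPM in 15Q and 691 ± 69.3 TPM in 84Q (SD, n = 3 each).

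Rps27rt had a larger fold change than the called genes but did not pass the threshold. Its level was 2.12, 3.67 and 3.88 CPM in 15Q against 7.28, 3.87 and 6.33 CPM in 84Q, with a log2 fold change of 0.83 ± 0.25 (SE) and an edgeR adjusted p of 0.107. The ranges met at 3.88 and 3.87 CPM, so the groups overlapped. It is the gene that reached the threshold with a fold over 1.5 in DESeq2, where its log2 fold change was 0.85 and its adjusted p 0.0315.

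In 84Q+IGF1 against 15Q, 5 genes were higher and 0 were lower at an adjusted p under 0.1, where 1.04% of all genes were called higher and 2.63% lower. At an unadjusted p under 0.05, 22 members were higher, beside 7.36% of all genes higher and 17.7% in either direction, and 0 were lower. The called genes were Rps24, Rps14, Rplp1, Rps21 and Rpl36, each of which had also been called in 84Q against the same control libraries. No member was called with a fold of 1.5 (2.25% of all genes). The count was 2 without 15Q replicate 1 (0.986% of all genes called higher), 1 without 15Q replicate 2 (0.132%), 3 without 15Q replicate 3 (0.193%), 1 without 84Q+IGF1 replicate 1 (0.221%), 8 without 84Q replicate 2 (1.43%) and 11 without 84Q replicate 3 (1.69%). Rps24 had the clearest difference, with a log2 fold change of 0.48 ± 0.06 (SE) and an edgeR adjusted p of 0.00128, and it was called in each of the 17 other fits.

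Rps21 was 22.4, 19.0 and 19.5 CPM in 84Q+IGF1, above all 15Q libraries, with a log2 fold change of 0.46 and an edgeR adjusted p of 0.0542. Rps14 was 34.4, 32.3 and 32.1 CPM, likewise above all 15Q libraries, with a log2 fold change of 0.35 and an edgeR adjusted p of 0.0482. Rplp1 (91.5, 83.1 and 83.8 CPM) and Rpl36 (35.7, 30.3 and 29.0 CPM) also lay above 15Q in every library, with log2 fold changes of 0.29 and 0.35 and edgeR adjusted p-values of 0.0488 and 0.0714. Each of these 4 calls was lost without 15Q replicate 2 and without 84Q+IGF1 replicate 1. Those of Rplp1, Rps21 and Rpl36 were also lost without 15Q replicate 1, and those of Rps14, Rplp1 and Rpl36 without 15Q replicate 3. All 4 were lost with a replicate block, and that of Rpl36 also with the term for high Xist. The median log2 fold change of the 82 genes was 0.13, beside -0.00512 over all genes, and 76 of the 82 were above 0. The 3 genes below 0 with the smallest p were Rps27l, Rps26 and Rps20, at log2 fold changes of -0.20, -0.04 and -0.04, and none was called. The groups did not overlap, with 84Q+IGF1 higher, in 28 of the 82 genes and in 11.7% of all genes tested.

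**Figure D3:**
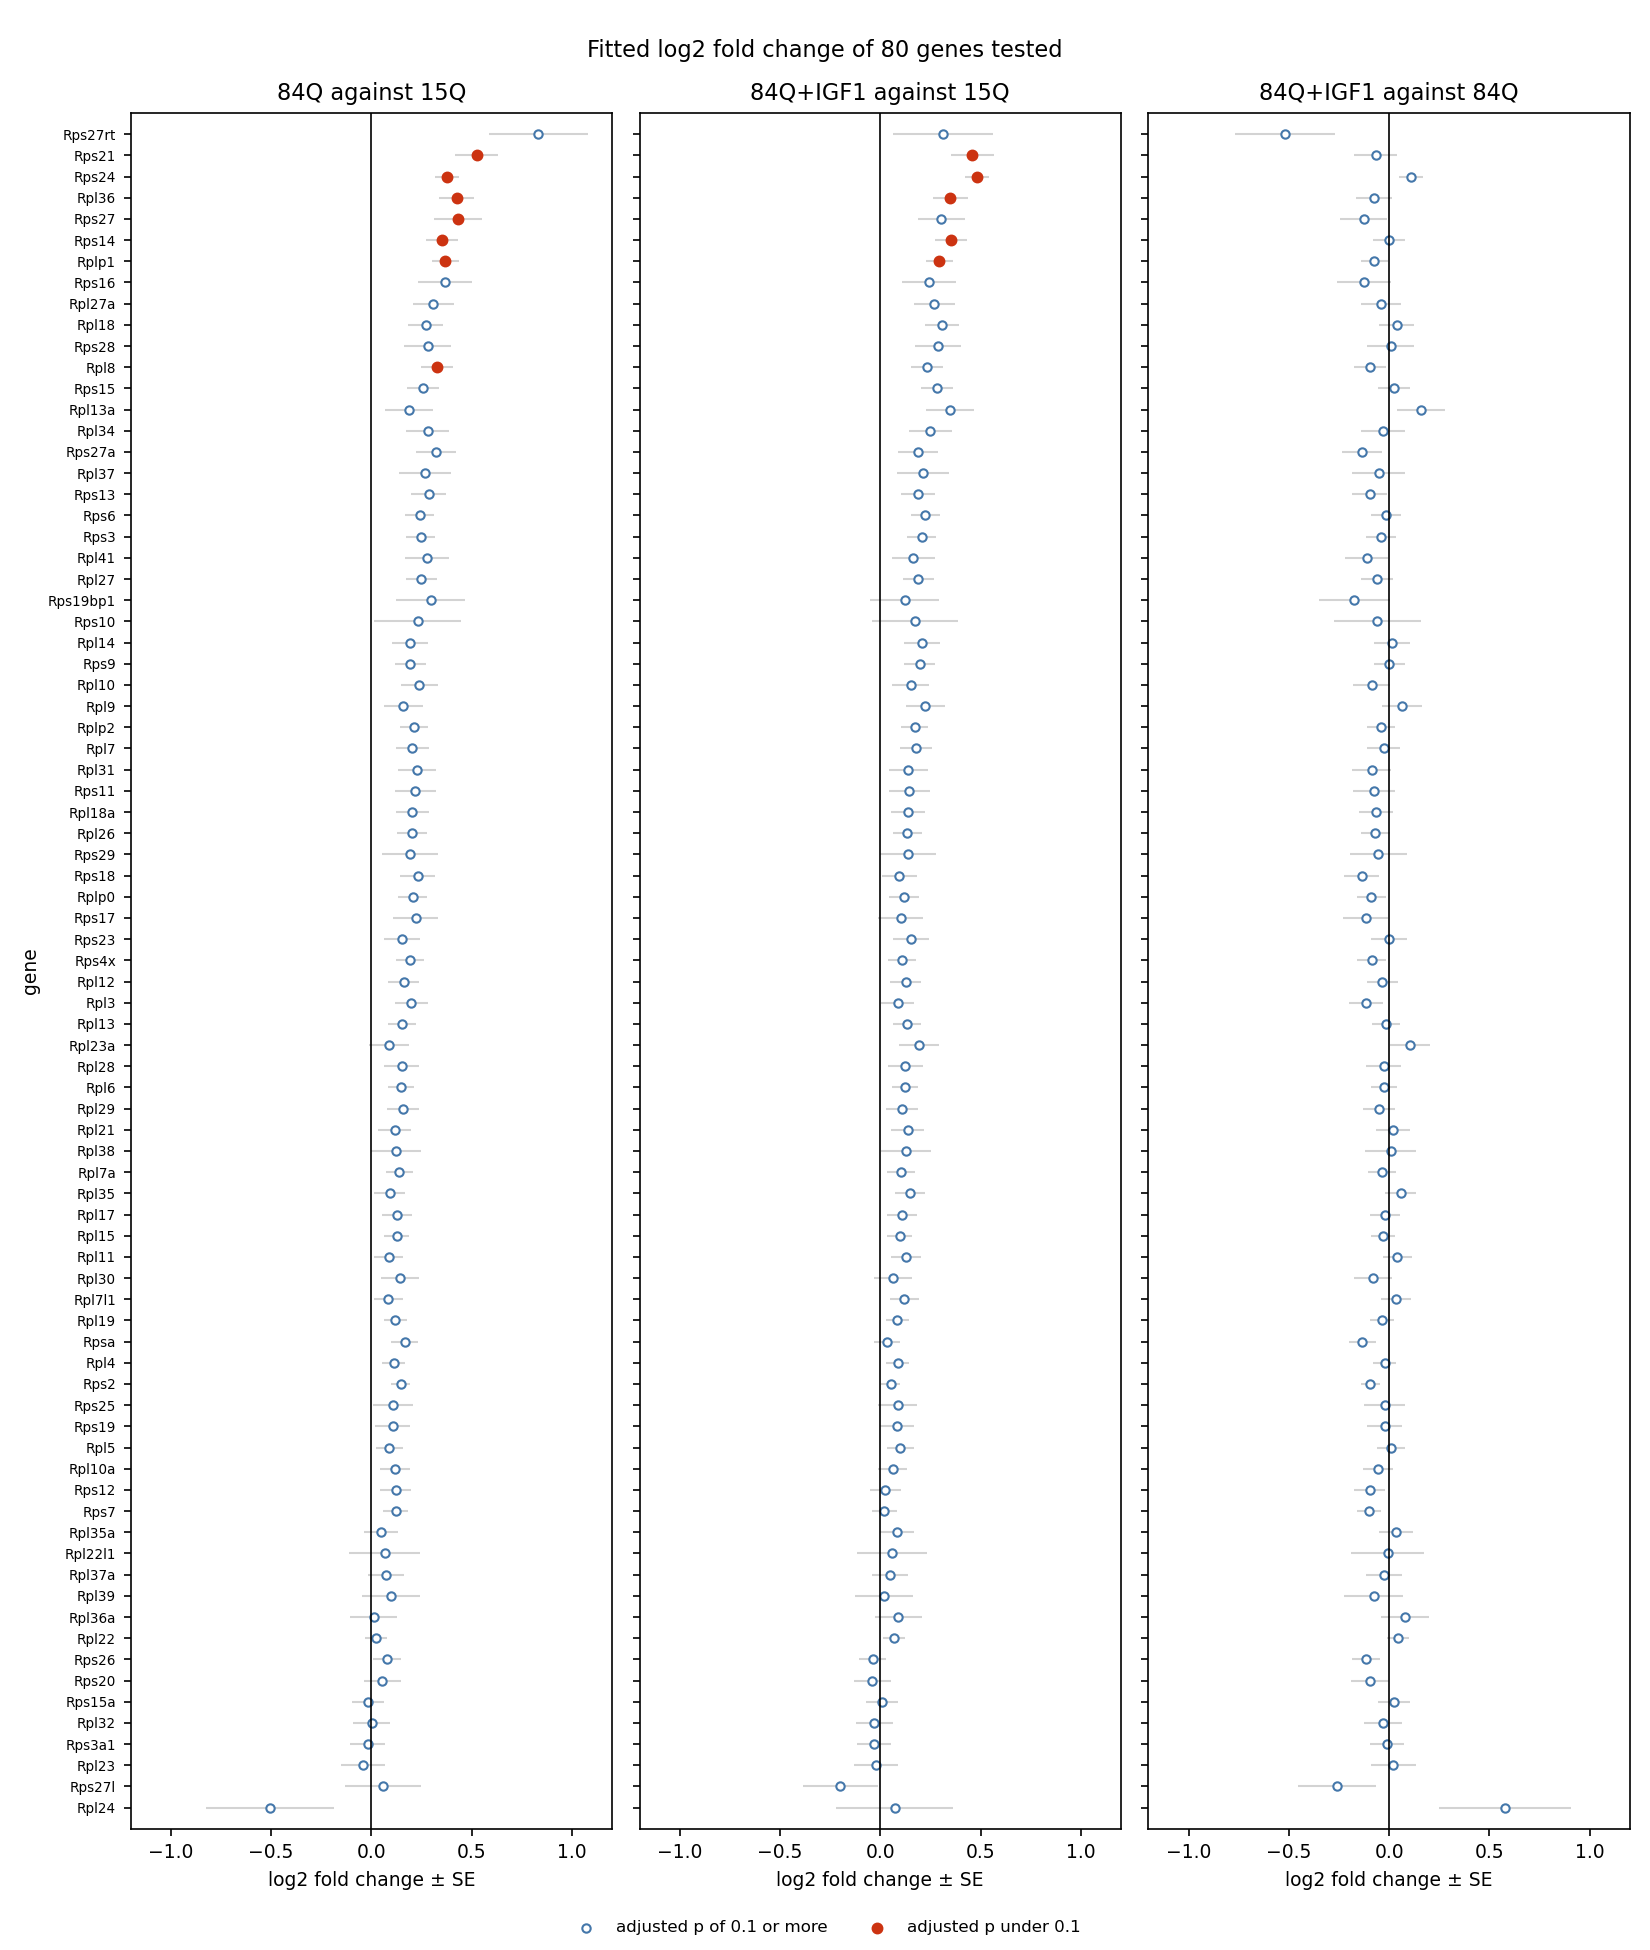
Fitted log2 fold change ± SE (x axes) of 80 of the 82 ribosomal protein genes tested (y axis, ordered by the comparison of both 84Q groups with 15Q) in 84Q against 15Q, 84Q+IGF1 against 15Q and 84Q+IGF1 against 84Q. Filled points have an edgeR adjusted p under 0.1. Most points lie to the right of 0 in the first pair of panels, with 7 and 5 filled, and around 0 in the last panel with none filled.

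The effect of IGF1 was addressed by 84Q+IGF1 against 84Q, in which 0 ribosomal protein genes were called (0.0% of all 19353 genes) by edgeR. At an unadjusted p under 0.05 there were 0 of the 82 genes and 905 of all genes (4.68%, of which 1.83% higher), and DESeq2 also called 0 members. The median log2 fold change of the 82 genes was -0.04, beside -0.00328 over all genes, and 22 of the 82 were above 0. In the same comparison 0 of 10 oligodendrocyte markers and 0 of 10 microglial markers were above 0, with medians of -0.28 and -0.20 and none called. The oligodendrocyte markers summed to 4316 ± 157 CPM in 15Q, 4465 ± 582 CPM in 84Q and 3697 ± 510 CPM in 84Q+IGF1 (SD, n = 3 each), 3 of 10 were called lower in 84Q+IGF1 against 15Q, and their part in these values was not tested. Without 84Q replicate 3 the median of the 82 ribosomal protein genes was 0.02, so its sign rested on that library.

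The 3 genes with the smallest p in this comparison were all below 0, namely Rps27rt, Rpsa and Rps2, with log2 fold changes of -0.52 ± 0.25, -0.13 ± 0.07 and -0.09 ± 0.05 (SE) and an edgeR adjusted p of 0.969 for each. On the other side of 0, Rps24, Rpl24 and Rpl13a had the smallest p, with log2 fold changes of 0.11, 0.58 and 0.16 and the same adjusted p. Rpsa, a small-subunit protein that is also known as the laminin receptor precursor, was 200.5, 199.5 and 234 CPM in 84Q and 199.0, 192 and 187 CPM in 84Q+IGF1. It was the 1 member whose groups did not overlap with 84Q+IGF1 lower, where 4.5% of all genes did so, and 0 members did so with 84Q+IGF1 higher (3.96% of all genes). Rps2, which lies near the entry of the mRNA, was 86.0, 90.8 and 92.9 CPM in 84Q and 86.5, 82.5 and 83.8 CPM in 84Q+IGF1, with overlapping groups. With 3 mice a group these values do not show that the levels were alike.

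When both 84Q groups were set against 15Q, 16 genes were higher and 0 were lower, where 3.64% of all genes were called higher and 6.11% lower. At an unadjusted p under 0.05, 36 members were higher (10.2% of all genes higher, 22.6% in either direction) and 0 were lower. With a fold of 1.5 no member was called by edgeR (3.51% of all genes) and 1 by DESeq2 (Rps27rt, share of all genes not counted). The 16 were 7 large-subunit genes (Rplp1, Rpl36, Rpl8, Rpl18, Rpl27a, Rpl27, Rplp2) and 9 small-subunit genes, among them Rps24, Rps21, Rps14, Rps15, Rps6, Rps27, Rps3 and Rps13. The count was 8 without 15Q replicate 1 (3.2% of all genes called higher), 4 without 15Q replicate 2 (0.319%), 6 without 15Q replicate 3 (0.345%), 10 without 84Q+IGF1 replicate 1 (2.06%) and 33 without 84Q replicate 2 (4.72%). Rps24, at a log2 fold change of 0.43 ± 0.05 (SE) and an edgeR adjusted p of 0.000691, had the smallest p, and Rplp1 had the next (log2 fold change 0.33, edgeR adjusted p 0.00954). Below 0 the smallest p was that of Rpl24, Rps27l and Rpl23, at log2 fold changes of -0.22, -0.07 and -0.03. Rps6, the substrate of the S6 kinases in the mTOR pathway, had a log2 fold change of 0.23 ± 0.06 (SE) and an edgeR adjusted p of 0.0623. The groups did not overlap, with both 84Q groups higher, in 20 of the 82 genes and in 5.93% of all genes, and in 0 of the 82 genes with both lower (6.37% of all genes). Of the 16 calls, those of Rps24, Rps21 and Rps14 held in all 16 other fits, and those of Rpl27, Rplp2 and Rps13 in 7, 5 and 7 of them. In this comparison 3 of 9 markers of astrocytes and Bergmann glia and 3 of 10 oligodendrocyte markers were called lower. By the same rule 2 of 10 microglial and 2 of 13 Purkinje markers were called higher. The part of these cell types was not tested.

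The X chromosome holds 4 members. Rps4x had 137 ± 2.6 TPM in 15Q, 152 ± 13.5 TPM in 84Q and 145 ± 8.3 TPM in 84Q+IGF1 (SD, n = 3 each). Rpl10 had 76.0 ± 4.0, 86.7 ± 8.2 and 83.0 ± 7.4 TPM, Rpl36a 60.9 ± 7.4, 59.5 ± 7.0 and 63.9 ± 6.8 TPM and Rpl39 20.3 ± 0.44, 20.9 ± 3.2 and 20.2 ± 2.8 TPM. None of them was called. Libraries with high Xist counts were found in every group, and with a term for them in the fit 7 members were called in 84Q against 15Q (0.703% of all genes called higher) and 4 in 84Q+IGF1 against 15Q (0.543%).

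Summed exon length moved with the difference from 15Q. This length is the union of the exons of all annotated transcripts of a gene. It can exceed the length of the mRNA made and so place a gene in a longer class. By this measure ribosomal protein genes are short, with a median of 1736.5 bases against 4421 bases for all protein-coding genes tested. Other protein-coding genes above 20 CPM shifted in 84Q against 15Q in the order of their length. Their median log2 fold change was 0.19 under 1000 bases (36 genes), 0.16 at 1000 to 2000 bases (357 genes), 0.10 at 2000 to 4000 bases (1920 genes), 0.02 at 4000 to 8000 bases (3480 genes) and -0.08 over 8000 bases (2109 genes). Ribosomal protein genes of the first 4 classes had medians of 0.21 (12 genes), 0.20 (34 genes), 0.15 (30 genes) and 0.18 (6 genes). The medians of ribosomal protein genes and of other genes were thus nearest in the classes under 2000 bases and farthest apart in the class of 4000 to 8000 bases, and no test was made of these differences. In 84Q+IGF1 against 15Q the medians of other genes were 0.19, 0.13, 0.08, 0.03 and -0.04 over the same classes, and those of ribosomal protein genes were 0.17, 0.13, 0.13 and 0.15 in the first 4, so that they were not above other genes under 2000 bases.

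**Figure D4:**
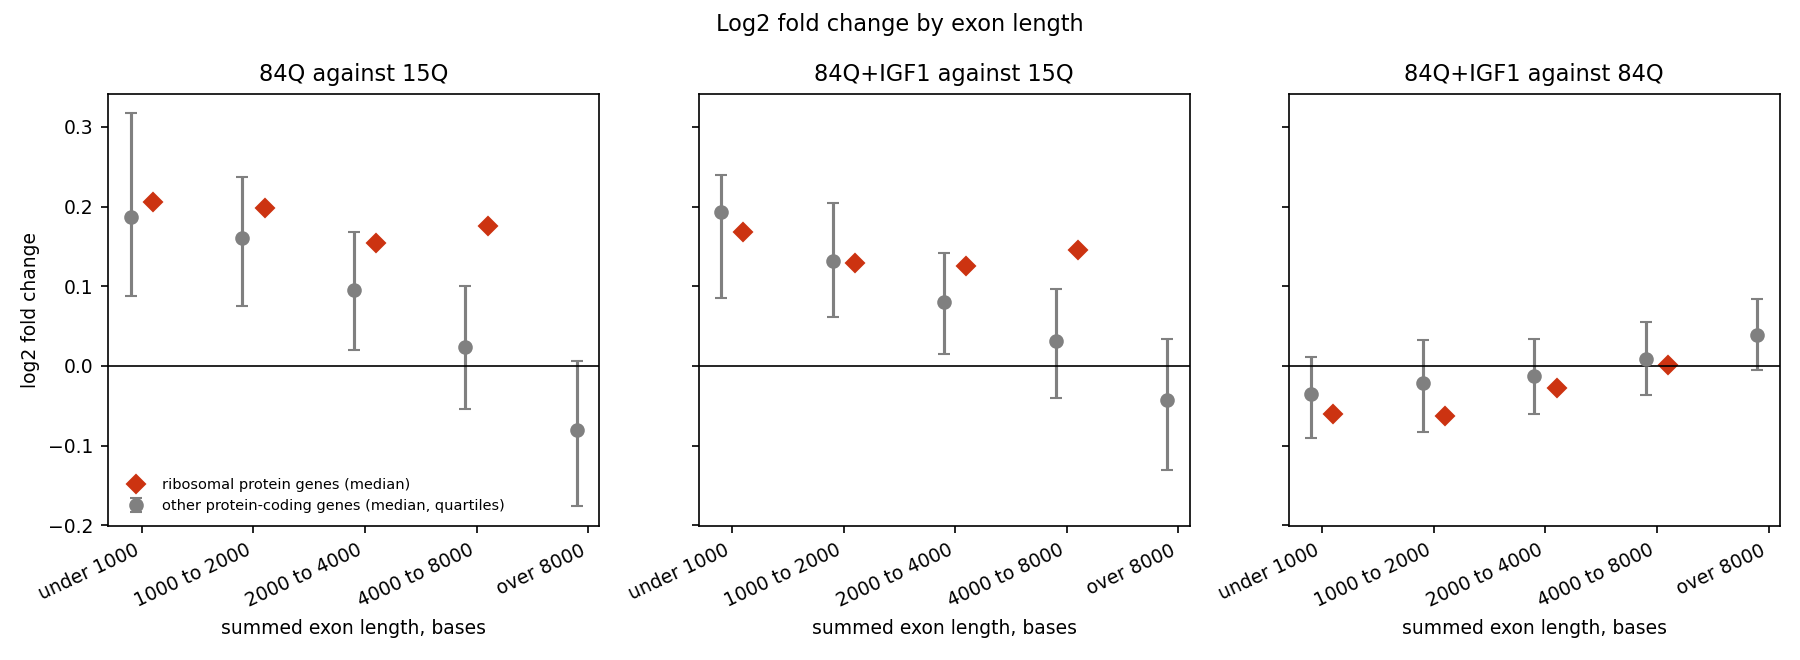
Median log2 fold change (y axis) by class of summed exon length in bases (x axis) in 84Q against 15Q, 84Q+IGF1 against 15Q and 84Q+IGF1 against 84Q. Circles with bars are other protein-coding genes above 20 CPM (median and quartiles), and diamonds are ribosomal protein genes (median). Against 15Q the other genes fall from 0.19 under 1000 bases to below 0 over 8000 bases, and the diamonds of the short classes lie within their quartiles.

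With an offset for exon length in each library, an alternative chosen after seeing the data, 2 members were called in 84Q against 15Q (0.553% of all genes called higher), 3 in 84Q+IGF1 against 15Q (0.641%) and 4 in both groups against 15Q (1.60%). The median log2 fold change in 84Q against 15Q became 0.06, beside -0.04 over all genes, and that in 84Q+IGF1 against 15Q became 0.04, also beside -0.04. Rps24, whose annotated exons sum to 6256 bases, kept its log2 fold change of 0.38, with an edgeR adjusted p of 0.00720. That length put it in the class of 4000 to 8000 bases, where other genes had a median log2 fold change of 0.02. The offset could therefore change its value little, so this fit does not decide the part of length for Rps24. Rps21 was still called at a log2 fold change of 0.36 and an edgeR adjusted p of 0.0622. Rplp1 (0.20, edgeR adjusted p 0.238), Rpl36 (0.26, edgeR adjusted p 0.339) and Rps14 (0.24, edgeR adjusted p 0.105) were not called in that fit. In 84Q+IGF1 against 15Q the called genes were Rps24, Rps21 and Rps14.

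Subunit proteins with other symbols were measured in the same way. Fau, which encodes RPS30 fused to a ubiquitin-like protein, was 38.2, 31.6 and 34.6 CPM in 15Q and 48.0, 41.1 and 47.4 CPM in 84Q, with a log2 fold change of 0.39 ± 0.09 (SE) and an edgeR adjusted p of 0.0489. Rack1, a scaffold on the small subunit, was called only when both groups were set against 15Q, at a log2 fold change of 0.17 and an edgeR adjusted p of 0.0985. The groups named here did not overlap for Fau, while for Rack1 84Q replicate 2 lay within the range of 15Q.

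Other parts of the translation machinery were counted by list. In 84Q against 15Q, 2 of 36 initiation factor genes were higher and 2 lower, with a median log2 fold change of 0.07. Eif5b, which joins the subunits, was lower at -0.46 (edgeR adjusted p 0.00517), as was Eif3a at -0.30 (edgeR adjusted p 0.0752), and Eif1 was higher at 0.31 (edgeR adjusted p 0.0838). None of 10 elongation factor genes was called (median 0.06). Of 84 ribosome assembly factors, 2 were higher and 1 lower (median 0.03), namely Nop10 at 0.54, Imp3 at 0.54 and Nop58 at -0.24. Among 22 genes of RNA polymerase I and ribosomal RNA transcription, Polr2l was higher at 0.48 and Top2a lower at -2.26.

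For the signalling genes upstream of ribosomal protein translation, 0 of 26 were higher and 1 was lower in 84Q against 15Q, with a median log2 fold change of 0.01. Of 16 genes of ribosome stalling and quality control, Nemf was lower at -0.27 (edgeR adjusted p 0.0525). Among 20 other mRNAs with a TOP start, Fau was higher and Pabpc1 lower at -0.22 (edgeR adjusted p 0.0865). In the mitochondrial ribosome 2 of 77 genes were higher, Mrpl34 at 0.59 and Mrpl40 at 0.30, and 0 were lower, with a median of 0.14. In 84Q+IGF1 against 84Q none of these genes was called.

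The shift was not equal between libraries of a group. Relative to the mean of the 9 libraries, the median log2 deviation of the 82 genes was -0.14, -0.12 and -0.06 in the 15Q libraries, 0.08, -0.07 and 0.21 in the 84Q libraries and 0.12, -0.05 and 0.04 in the 84Q+IGF1 libraries. In 84Q replicate 3, 79 of the 82 genes were above their mean, as they were in 84Q+IGF1 replicate 1, whereas 18 were above it in 84Q replicate 2, the library with the highest choroid plexus markers, and 23 in 84Q+IGF1 replicate 2. Other protein-coding genes of 1000 to 2000 bases deviated by -0.09, -0.08 and -0.11 in 15Q, by 0.04, 0.01 and 0.13 in 84Q and by 0.10, -0.01 and 0.02 in 84Q+IGF1. The part of exon length, depth and tissue makeup in these deviations was not tested.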

How the data were processed

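RNA-seq was measured in cerebellar tissue of 9 mice, and replicate numbers come from the sample titles. According to the study's methods and processing notes, the authors trimmed reads with Trimmomatic 0.36, aligned them to GRCm38 (mm10) with HISAT2 2.2.0 and counted them per gene with featureCounts. The deposited values are raw counts per gene. The annotation, the strand setting and the handling of reads that map to several genes are not given in the sources used here. The counts used here hold no mitochondrially encoded gene.

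From these counts, edgeR 4.0.16 in R 4.3.3 was fitted to all 9 libraries with 3 group means (TMM normalization, filterByExpr, quasi-likelihood test, Benjamini-Hochberg adjustment over the 19353 genes kept). The methods of the study used DESeq2, which was an alternative here (1.42.0). The 3 group comparisons and that of both 84Q groups with 15Q were contrasts of this fit. CPM used TMM-scaled totals, and TPM used the union of exons in GENCODE vM21, which placed 37681 of the 37816 genes. Two-sided p-values set each group difference against the spread between these mice, which was estimated with information shared over all genes tested. The steps were tested on simulated data. Groups did not overlap where the lowest library of one exceeded the highest of the other. Totals of 17482654 to 58269196 counts set the precision, and 3 counts corresponded to 0.0513 to 0.171 CPM.

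The genes and gene lists were chosen with earlier results of these data known. Named were members called with a fold of 1.5, up to 5 per comparison and direction with the smallest p (3 where none was called), the 5 highest and 5 lowest by TPM, second copies, members on the X chromosome and members not tested, Fau and Rack1, and up to 3 called genes per other list. Rpl8 and other members outside this rule were named after their values were seen. Some genes that the rule names are not reported here. Alternatives were DESeq2, fits to unfiltered counts, size factors from DESeq2, TMM without the members, an adjusted p under 0.05, a replicate block, only the groups compared, a term for high Xist, each library left out and, added after seeing the data, an offset for exon length (a loess curve per library over other protein-coding genes above 20 CPM).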

Additional observations from a re-analysis of the deposited data

How the results depend on the processing

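No alternative turned a call of a ribosomal protein gene in the opposite direction. In 84Q against 15Q the 8 genes called became 20 with DESeq2 (2.59% of all genes called higher), 30 without a filter on low counts (2.18%), 5 at an adjusted p under 0.05 (0.398%) and 2 with the exon-length offset (0.553%). With a fold of 1.5 the count of 0 became 1 with DESeq2, 1 without the filter and 1 with the Xist term, which was Rps27rt each time. The share of all genes with such a fold was counted only in the edgeR fit used above. There it was 2.14% in 84Q against 15Q and 3.51% for both groups. In 84Q+IGF1 against 15Q the 5 genes became 8 with DESeq2 (1.97%), 18 without the filter (1.54%), 3 at an adjusted p under 0.05 (0.295%), 3 with the offset (0.641%) and 10 when fitted without the 84Q libraries (1.58%). In 84Q+IGF1 against 84Q the count of 0 became 1 without the filter, a gene that was lower (0.569% of all genes called lower). For both groups against 15Q the 16 genes became 31 without the filter (2.71%), 6 at an adjusted p under 0.05 (1.08%) and 4 with the offset (1.60%), and the count with a fold of 1.5 was 1 with DESeq2 and 1 with the Xist term. The offset lowered the median log2 fold change to 0.0553 in 84Q against 15Q, to 0.0387 in 84Q+IGF1 against 15Q and to 0.0426 for both groups. The cause of these changes was not tested.

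When each library was left out in turn, the members called ranged from 2 to 28 in 84Q against 15Q, from 1 to 11 in 84Q+IGF1 against 15Q, from 0 to 0 in 84Q+IGF1 against 84Q and from 4 to 33 for both groups. With a fold of 1.5 they ranged from 0 to 3, 0 to 0, 0 to 0 and 0 to 1. The share of all genes called with such a fold was not counted in these fits. With all libraries in the edgeR fit it was 2.14%, 2.25%, 0.0% and 3.51%. The medians ranged from 0.11 to 0.24, 0.09 to 0.18, -0.11 to 0.02 and 0.11 to 0.19. The summed share of counts ranged from 0.482% to 0.496% in 15Q, 0.531% to 0.580% in 84Q and 0.523% to 0.553% in 84Q+IGF1.

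With a replicate block 4 members were called in 84Q against 15Q (0.393% of all genes called higher) and 2 in 84Q+IGF1 against 15Q (0.248%), and calls over all genes fell as well. Same-numbered libraries of different groups deviated with correlations of -0.31 to 0.08, so the replicate numbers were not taken as pairs. The sample titles also carry codes whose meaning is not given, and no pairing was drawn from them. The alternative of totals without mitochondrially encoded genes gave no value, since no such gene was in the counts used here. The 4 members that were not tested had too few counts for a comparison.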
